A study of Mus musculus with 8 samples.

Results

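Ribosome biogenesis genes encode the machinery that transcribes ribosomal RNA (rRNA), modifies and cleaves it, and builds it into the small and large ribosomal subunits. A list of 39 such genes was followed across 8 mouse arrays, and 36 of the 39 were measured among the 12393 genes of the table. They were listed by name as genes of rRNA transcription, rRNA processing and ribosome assembly, and the list was drawn up with earlier results of these data known. The 3 listed genes not measured were Dkc1 and Npm3, for which the probe annotation used here named no probe set, and Mrto4, whose probe set also matched 2 pseudogenes and so had no single gene symbol.

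Intestinal epithelial cells were taken from 4 genotype groups, each with 2 Affymetrix arrays (n = 2 per group throughout). The double mutants (IKK-AA_bCATca) carried both an activated β-catenin allele, β-catc.a., and the IkkαAA/AA genotype. The bCATca group carried β-catc.a. alone, the IKK-AA group carried IkkαAA/AA alone, and the WT group carried neither. All 4 groups had the mixed C57BL/6 x 129Sv x FVB background, received tamoxifen by gavage on 5 days, WT and IKK-AA mice included, and were sampled 15 days after the first dose. Per the series' design text, tamoxifen stabilises β-catenin in the intestinal epithelium alone, which expands the crypts and depletes differentiated cells, whereas the labels give IkkαAA/AA as the genotype of the mouse with no restriction to a cell type. The series set out to learn how IKKα, a kinase of the NF-κB pathway, contributes to that proliferation. The ages of the mice and the section of intestine sampled are not given in the sources used here.

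Ribosome production starts in the nucleolus, where RNA polymerase I transcribes the long rRNA precursor. Small nucleolar ribonucleoproteins of the box C/D and box H/ACA types guide its methylation and pseudouridylation, and large assemblies of processing factors cut it and fold it with ribosomal proteins. Growing and dividing cells need many new ribosomes, and in the gut these are the cells of the crypt base and the transit-amplifying zone. Many genes of this pathway are known targets of Myc, itself a Wnt target gene in the intestine.

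Promoter windows were searched for 3 short sequences on both strands, because the members moved together over the arrays. The windows are those of RefSeq on the mouse build GRCm38.p6, from 250 bases before to 50 bases after a transcription start. At least 1 was found for 33 of the 39 members. Among these were Dkc1, Mrto4 and Npm3, which were not measured and held none of the 3 sequences. CACGTG, the E-box that Myc with Max is known to bind, was present for 3 of 33 members (9.09%), against 10.8% of the 9888 measured genes with a window. CACGCG, a variant E-box counted apart from CACGTG since no match can be both, was present for 10 of 33 members (30.3%), against 17.3% of measured genes. CCGGAAG, the core of sites bound by Ets family factors, was present for 11 of 33 members (33.3%), against 16.3% of measured genes. Across all 32851 windows of the table the shares were 7.15% for CACGTG, 9.27% for CACGCG and 8.86% for CCGGAAG. None of the 9 members that rose in bCATca over WT arrays held CACGTG, and 5 of these 9 held CCGGAAG, namely Ebna1bp2, Gar1, Nhp2, Polr1c and Ppan. Among 109 other ribosome biogenesis genes with a window the shares were 22% for CACGTG, 34.9% for CACGCG and 44% for CCGGAAG, so for CACGTG that set lay above measured genes while the members did not. A match is a run of letters and not a shown binding site.

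The stretches below run 5′ to 3′ on the strand of the gene and begin 60 bases before the match. They end at the last base before the transcription start, except in Imp4, where the stretch ends 60 bases after the match. Capitals mark only the match for which a stretch is shown. Gar1 (chr3:129831397-129831499, minus strand), Nhp2 (chr11:51619690-51619772, plus strand) and Polr1c (chr17:46248046-46248147, minus strand) are shown. These 3 passed the test in bCATca arrays and hold CCGGAAG wholly before the start, which Ebna1bp2 and Ppan do not. In Gar1 the match lies on the opposite strand and reads CTTCCGG.
Gar1: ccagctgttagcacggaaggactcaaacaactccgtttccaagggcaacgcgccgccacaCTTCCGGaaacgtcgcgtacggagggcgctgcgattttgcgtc
Nhp2: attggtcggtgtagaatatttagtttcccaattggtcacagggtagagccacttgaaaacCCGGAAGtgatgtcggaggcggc
Polr1c: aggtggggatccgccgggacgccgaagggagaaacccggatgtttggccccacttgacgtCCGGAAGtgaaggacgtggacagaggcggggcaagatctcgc
The match began 43 bases before the start in Gar1, 23 in Nhp2 and 42 in Polr1c.

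Nop2 (chr6:125131763-125131882, plus strand) and Imp4 (chr1:34439648-34439773, plus strand) are shown as members that hold CACGTG upstream of the start, at 60 and 121 bases before it. Neither passed the test in any comparison. The Nop2 stretch also holds CCGGAAG, left in lower case, 38 bases before the start.
Nop2: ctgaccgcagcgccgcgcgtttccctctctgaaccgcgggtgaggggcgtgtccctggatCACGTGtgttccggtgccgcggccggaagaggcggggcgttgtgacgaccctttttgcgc
Imp4: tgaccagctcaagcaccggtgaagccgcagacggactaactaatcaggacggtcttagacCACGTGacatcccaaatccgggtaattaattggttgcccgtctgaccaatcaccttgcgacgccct

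All levels below are log2 of the deposited intensity. A difference is the gap between 2 group means on that log2 scale and stands with its model standard error (SE), and adjusted p-values come from limma with Benjamini-Hochberg adjustment over all 12393 genes. A gene is said to have risen or fallen only at an adjusted p under 0.05. Median intensities were 50.9 to 53.8 on the 8 arrays, and precision is limited by how few arrays there were. Nothing in the labels says that the arrays of a group came from separate animals, so each p-value is set against the spread of these samples only. Outside WT that spread may be technical. Epithelial identity was clear on all arrays: Epcam, which marks epithelial cells, lay at the 99.5th percentile of all genes, and the summed intensity of 10 epithelial markers was 40322 and 40942 in double mutant arrays, 40630 and 39808 in bCATca, 41897 and 38019 in IKK-AA and 36849 and 39598 in WT. The WT arrays differed from each other in sex-linked genes: Xist read 9.18 on WT replicate 1 and at most 4.03 on every other array, and Eif2s3y, of the Y chromosome, read 2.02 there and at least 7.25 elsewhere. WT replicate 1 thus had a female pattern and every other array a male one, so the 2 WT arrays did not come from the same animal. Each comparison that uses the WT arrays carries this imbalance of sex, and its part was not tested. Since the RNA comes from many cells at once, a change in the share of a cell type and a change of RNA per cell cannot be told apart.

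In bCATca epithelium the ribosome biogenesis genes were higher than in WT as a group, and 9 of the 36 measured members rose while none fell. In this comparison 5.74% of all genes rose and 3.55% fell. The members that rose were Nhp2, Rrp1b, Nop56, Gar1, Ebna1bp2, Ppan, Nop58, Ncl and Polr1c, with folds between 1.56 (Polr1c) and 2.23 (Nhp2). The difference was positive for all 36 members, against 51% of all genes, and ranged from 0.21 for Bop1 to 1.16 for Nhp2 with a median of 0.72, against a median of 0.01 over all genes. Both bCATca arrays lay above both WT arrays for 33 of 36 members, which was so for 33.5% of all genes. At an unadjusted p under 0.05 the count was 30 members, against 17% of all genes in that direction.

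That count of 9 depended on single arrays. With WT replicate 1 left out, with WT replicate 2 left out or with bCATca replicate 2 left out, no member passed, and the median difference was 0.88, 0.56 and 0.57 in these 3 fits. Without bCATca replicate 1 the count was 4, and without either double mutant array it was 3. The IKK-AA arrays add only to the shared estimate of spread here, and without them 21 members passed, as did 15.2% of all genes in either direction. The median stayed between 0.56 and 0.90 when a bCATca or WT array was left out, each time with 1 array remaining in that group. Leaving out an array of another group cannot change this difference, so those fits say nothing about its direction.

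**Figure D1:**
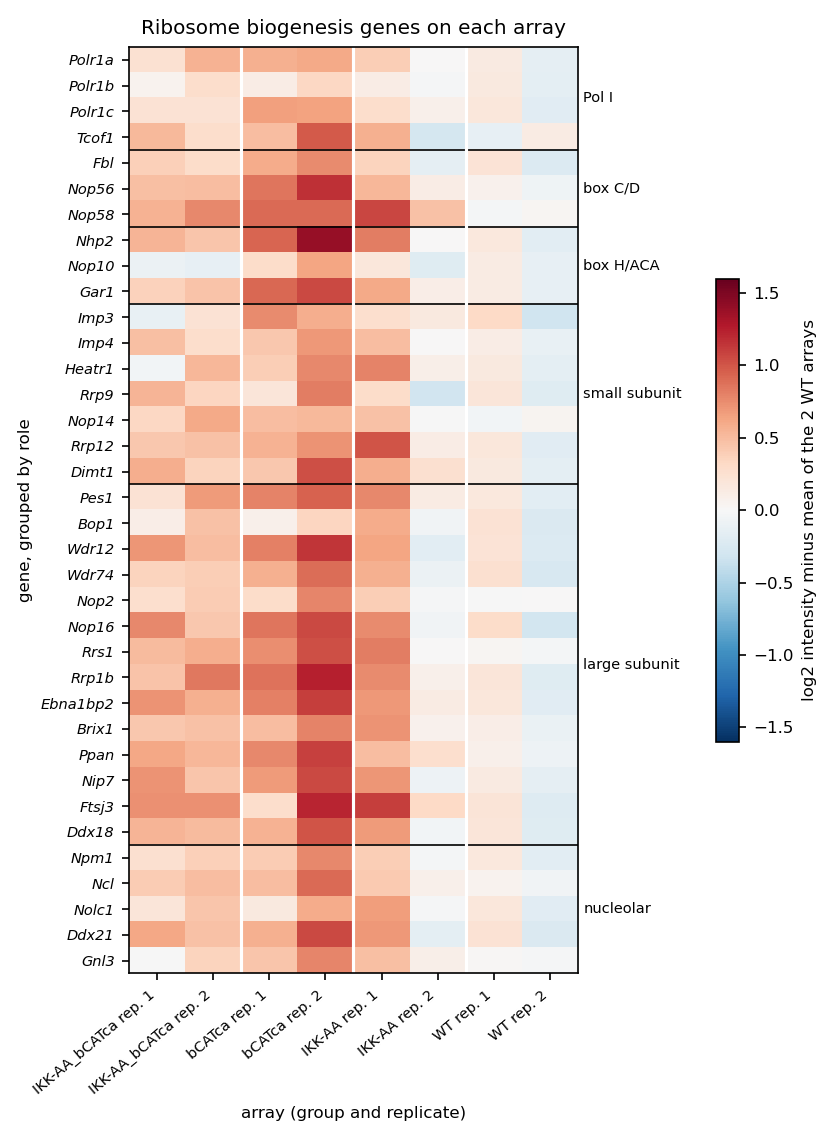
Log2 intensity of each of the 36 measured members (rows, ordered by role) on each of the 8 arrays (columns), minus the mean of the 2 WT arrays, as a colour scale from -1.6 to 1.6. The darkest column is bCATca replicate 2, and IKK-AA replicate 1 is higher than IKK-AA replicate 2 in every row.

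The box C/D proteins guide rRNA ribose methylation, with Nop56 and Nop58 as the scaffold of the particle and Fbl, fibrillarin, as its methyltransferase. Nop56 read 8.75 and 8.76 in double mutant arrays, 9.11 and 9.43 in bCATca, 8.80 and 8.39 in IKK-AA and 8.34 and 8.19 in WT. Both bCATca arrays were above all 6 others, and Nop56 rose by 1.01 (SE 0.181) in bCATca over WT, at an adjusted p of 0.0153. Nop58 read 8.47 and 8.68 in double mutant arrays, 8.82 and 8.82 in bCATca, 8.98 and 8.38 in IKK-AA and 7.88 and 7.94 in WT. The WT arrays were the 2 lowest, the highest was IKK-AA replicate 1, and the rise in bCATca over WT was 0.91 (SE 0.199, adjusted p 0.0304). Fbl read 10.18 and 10.10 in double mutant arrays, 10.39 and 10.56 in bCATca, 10.16 and 9.65 in IKK-AA and 10.02 and 9.58 in WT. Its bCATca arrays were the 2 highest, but the difference of 0.68 (SE 0.211) missed the threshold at an adjusted p of 0.0792.

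The box H/ACA proteins form the pseudouridylation particle around dyskerin, the product of Dkc1. Nhp2, which binds the guide RNA, read 9.99 and 9.88 in double mutant arrays, 10.37 and 10.83 in bCATca, 10.27 and 9.46 in IKK-AA and 9.62 and 9.27 in WT. It had the largest difference of any member, 1.16 (SE 0.275, adjusted p 0.038), with both bCATca arrays above every other array. Gar1, which acts in substrate loading and release, read 8.90 and 8.98 in double mutant arrays, 9.45 and 9.59 in bCATca, 9.14 and 8.63 in IKK-AA and 8.66 and 8.40 in WT. Its 2 bCATca arrays also lay above all others, and it rose by 0.99 (SE 0.19, adjusted p 0.0194) over WT. Nop10, the small linker protein of the particle, read 10.41 and 10.36 in double mutant arrays, 10.79 and 11.12 in bCATca, 10.67 and 10.29 in IKK-AA and 10.62 and 10.37 in WT. The double mutant and WT arrays of Nop10 covered a common range, and its bCATca difference of 0.46 from WT (SE 0.187) did not pass, at an adjusted p of 0.143.

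RNA polymerase I was represented by its 2 largest subunits, Polr1a and Polr1b, by Polr1c, a subunit it shares with RNA polymerase III, and by Tcof1, the nucleolar cofactor treacle. Polr1c read 7.86 and 7.87 in double mutant arrays, 8.28 and 8.27 in bCATca, 7.91 and 7.71 in IKK-AA and 7.81 and 7.45 in WT. The bCATca arrays lay 0.014 apart and were the 2 highest, and Polr1c rose by 0.65 (SE 0.16, adjusted p 0.0438). The bCATca differences from WT of the other 3 were 0.59 for Polr1a, 0.22 for Polr1b and 0.74 for Tcof1, with adjusted p-values of 0.0819, 0.399 and 0.126.

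Of the large-subunit assembly factors, 3 of 14 measured rose in bCATca over WT, against 5.74% of all genes. Their roles are known mainly from the yeast counterparts. Ppan read 7.42 and 7.34 in double mutant arrays, 7.56 and 7.89 in bCATca, 7.30 and 7.07 in IKK-AA and 6.88 and 6.71 in WT. All 6 mutant arrays lay above both WT arrays, and the bCATca rise over WT was 0.93 (SE 0.164), with the smallest adjusted p of any member, 0.0146. Ebna1bp2 read 8.39 and 8.25 in double mutant arrays, 8.48 and 8.78 in bCATca, 8.37 and 7.81 in IKK-AA and 7.85 and 7.50 in WT. Apart from IKK-AA replicate 2, every mutant array was above both WT arrays, and the rise in bCATca was 0.95 (SE 0.221, adjusted p 0.0359). Rrp1b read 6.73 and 7.11 in double mutant arrays, 7.14 and 7.51 in bCATca, 7.03 and 6.35 in IKK-AA and 6.47 and 6.07 in WT. It rose by 1.05 (SE 0.264, adjusted p 0.0446) in bCATca over WT.

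The other 11 large-subunit factors did not pass, although 9 of them had an unadjusted p under 0.05, against 17% of all genes in that direction. Pes1, Bop1 and Wdr12 form the PeBoW complex, which processes the large-subunit rRNA precursor, and they differed in size: 0.87 for Pes1 (adjusted p 0.0616) and 0.98 for Wdr12 (adjusted p 0.0601), against 0.21 for Bop1 (adjusted p 0.617). Bop1 was the member with the smallest difference and the only member whose highest group mean was that of the double mutants, 8.08 there and 8.01 in bCATca. Rrs1, which in yeast recruits the RNA of the central protuberance, had 0.89 (adjusted p 0.0579), and Nop16 had 0.95 (adjusted p 0.077). Nip7, Ddx18 (an RNA helicase), Wdr74, Ftsj3, Brix1 and Nop2, an rRNA methyltransferase, had differences of 0.87, 0.78, 0.74, 0.74, 0.65 and 0.53, with adjusted p-values between 0.0762 (Nip7) and 0.186 (Ftsj3).

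None of the 7 small-subunit members passed, where 5.74% of all genes rose and 3.55% fell in bCATca against WT. All 7 had both bCATca arrays above both WT arrays, which was so for 33.5% of all genes. The small-subunit processome cuts and folds the precursor of the small-subunit rRNA, and Imp3, Imp4, Heatr1, Rrp9, Nop14 and Rrp12 are factors of it or of its later maturation. Their bCATca differences from WT were 0.67, 0.56, 0.58, 0.51, 0.50 and 0.64. Dimt1, which dimethylates the small-subunit rRNA, had the largest of the 7, 0.73 (SE 0.229), at an adjusted p of 0.0796.

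Of the 5 measured nucleolar proteins 1 rose, Ncl, against 5.74% of all genes. The role groups were not tested against each other. Ncl encodes nucleolin, an abundant RNA-binding protein of the nucleolus, and read 10.85 and 10.93 in double mutant arrays, 10.94 and 11.35 in bCATca, 10.86 and 10.53 in IKK-AA and 10.50 and 10.39 in WT. Its rise of 0.70 (SE 0.181) lay just inside the threshold, at an adjusted p of 0.049, and bCATca replicate 1 stood only 0.008 above double mutant replicate 2. Npm1, the nucleolar chaperone nucleophosmin, read 10.93 and 11.06 in double mutant arrays, 11.09 and 11.45 in bCATca, 11.07 and 10.65 in IKK-AA and 10.84 and 10.51 in WT, a bCATca difference of 0.59 (adjusted p 0.0986). Ddx21, a helicase of rRNA transcription and processing, and Gnl3, the GTPase nucleostemin of dividing cells, had differences of 0.81 and 0.61 with adjusted p-values of 0.113 and 0.0834. Nolc1, a chaperone of small nucleolar particles, had 0.38 (adjusted p 0.361).

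**Figure D2:**
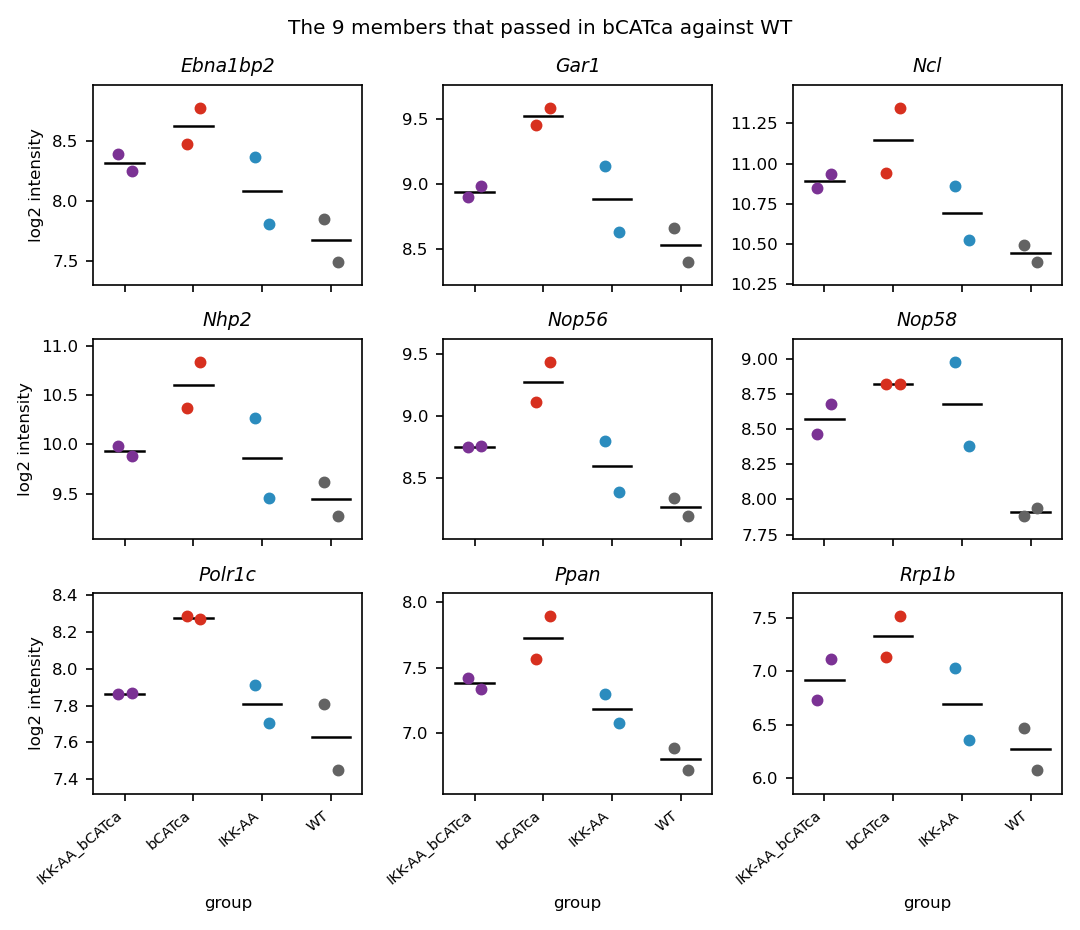
Log2 intensity on each array (points) and group mean (bar) for the 9 members that rose in bCATca over WT, each panel with its own axis range and the groups in the order double mutant, bCATca, IKK-AA and WT. The bCATca mean is the highest in all 9 panels and the WT mean the lowest, and the IKK-AA points are spread widest in 6 of the 9.

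Of the 36 members, 22 had more than 1 probe set, and the values above come from the brightest. In bCATca against WT all probe sets had the same sign for 18 of these 22, and in double mutants against bCATca for 13 of 22. For members that rose, the further probe sets gave 1.17 for Nhp2, 0.84 for Nop56, 0.81 for Polr1c, 0.53 to 0.65 for Ncl, and 0.37 and 0.70 for Rrp1b. The second probe set of Ebna1bp2 gave -0.15 at a mean level of 4.57, against 8.18 for the set used. Polr1a, Nop16 and Brix1 also had a dim probe set of opposite sign, and with the mean of all probe sets in place of the brightest, 6 of the 9 members still passed.

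In double mutants no member passed against WT by limma, where 0.984% of all genes rose, and 7 members had an unadjusted p under 0.05, against 9.38% of all genes in that direction. The difference was positive for 35 of 36 members, against 53.5% of all genes, with a median of 0.45 against 0.02 over all genes. Both double mutant arrays lay above both WT arrays for 30 of 36 members, which was so for 28.2% of all genes. The 3 members with the smallest p were Ppan at 0.58 (SE 0.164, adjusted p 0.128), Nop58 at 0.66 (SE 0.199, adjusted p 0.144) and Ebna1bp2 at 0.65 (SE 0.221, adjusted p 0.191). For each of the 3, both double mutant arrays lay above both WT arrays. The extremes were Ftsj3 at 0.73 and Nop10 at -0.11, the only member below WT. Nop58 passed when only these 4 arrays were fitted (adjusted p 0.0433) and when the IKK-AA arrays were left out (adjusted p 0.0368).

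Set against bCATca alone, double mutants had lower values for 35 of 36 members, against a positive difference for 50.6% of all genes, but none passed the test. In this comparison 0.807% of all genes fell, and 6 members had an unadjusted p under 0.05 in that direction, against 8.2% of all genes. The median member difference was -0.30, against 0.00 over all genes, and both double mutant arrays lay below both bCATca arrays for 23 of 36 members, as for 24.2% of all genes. The 3 smallest p-values belonged to Nop10 at -0.57 (SE 0.187, adjusted p 0.204), Gar1 at -0.58 (SE 0.19, adjusted p 0.206) and Nop56 at -0.52 (SE 0.181, adjusted p 0.232). The box H/ACA proteins had the lowest median of the 6 role groups here, -0.58, with -0.67 for Nhp2 (adjusted p 0.307), and all 3 had both double mutant arrays below both bCATca arrays. Imp3, of the small-subunit processome, followed with -0.61 (adjusted p 0.263). Bop1 was the exception in direction, at 0.08. The members' values here come from the brightest probe set, and for 9 of the 22 members with several, among them Ncl, Pes1 and Ddx21, another probe set had the opposite sign. Without bCATca replicate 2, the brightest array for 28 of 36 members, the median difference was -0.15, and without bCATca replicate 1 it was -0.48.

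The interaction, the β-catc.a. difference among IkkαAA/AA mice minus that among mice without it, was negative for all 36 members, against a positive value for 50.3% of all genes. Its median was -0.60, against 0.00 over all genes. No member passed, where 0.0484% of all genes passed with a negative value, and 10 members had an unadjusted p under 0.05, against 7.84% of all genes with a negative value. The smallest p-values were those of Nop58 at -1.01 (SE 0.282, adjusted p 0.177), Gar1 at -0.93 (SE 0.268, adjusted p 0.187) and Nop56 at -0.85 (SE 0.256, adjusted p 0.2). Nhp2 had the largest interaction, -1.09, and Rrp9 the smallest, -0.06. The size depended on which IKK-AA array was used: the median was -0.91 without IKK-AA replicate 2 and -0.30 without IKK-AA replicate 1. Nop58 stood at -1.31 in the first of these fits. Each of the 4 groups enters this contrast, which therefore shares arrays with every other comparison given here.

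**Figure D3:**
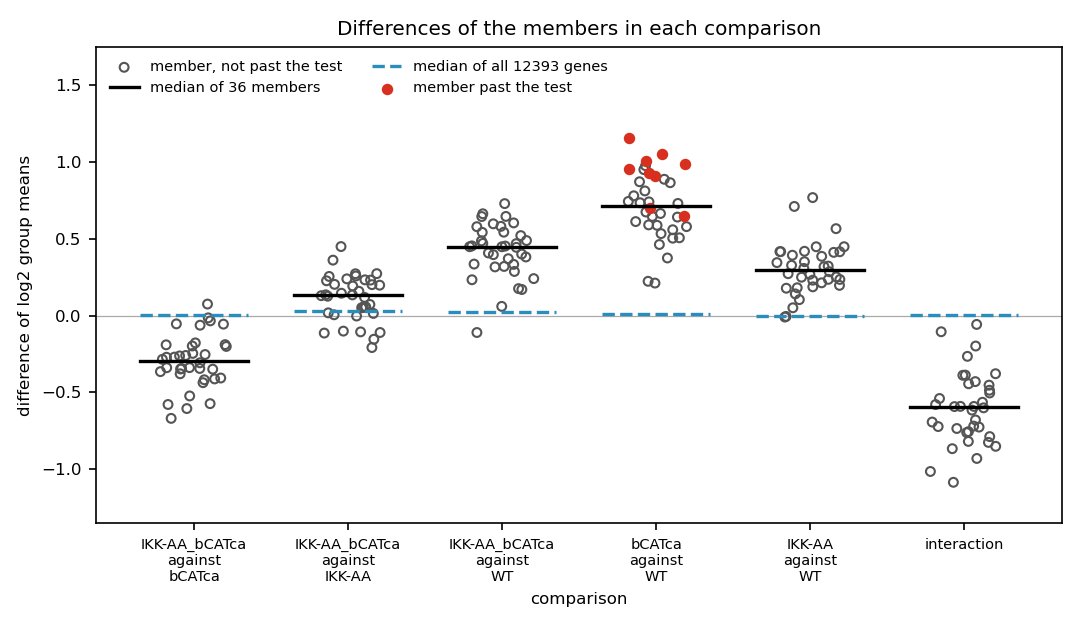
Difference of log2 group means for each of the 36 members (circles, filled where the member passed) in 5 comparisons and the interaction, with the median of the members (black bar) and of all 12393 genes (dashed bar). Filled circles occur in bCATca against WT alone, and the member medians are -0.30, 0.13, 0.45, 0.72, 0.30 and -0.60 in the order drawn.

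Against IKK-AA, double mutants differed little: the median was 0.13, against 0.03 over all genes, and 29 of 36 members had a positive difference, against 56.1% of all genes. No member passed by limma, where 0.0565% of all genes did, and none had an unadjusted p under 0.05 in either direction, against 4.48% of all genes higher and 2.45% lower. Rrp9, a protein of the small-subunit processome, read 8.33 and 8.12 in double mutant arrays, 7.98 and 8.60 in bCATca, 8.08 and 7.47 in IKK-AA and 7.97 and 7.59 in WT. Nop14 read 6.70 and 6.97 in double mutant arrays, 6.86 and 6.88 in bCATca, 6.83 and 6.36 in IKK-AA and 6.32 and 6.41 in WT. Wdr12 read 7.18 and 6.96 in double mutant arrays, 7.28 and 7.62 in bCATca, 7.11 and 6.31 in IKK-AA and 6.69 and 6.25 in WT. These 3 had the smallest p in this comparison, with differences of 0.45 (SE 0.269, adjusted p 0.827), 0.24 (SE 0.184, adjusted p 0.865) and 0.36 (SE 0.274, adjusted p 0.863). Both double mutant arrays lay above both IKK-AA arrays for 2 members, against 19.9% of all genes. Rrp9 was among them, whereas the double mutant arrays of Nop14 and Wdr12 overlapped the IKK-AA range. Without IKK-AA replicate 2 the median was -0.15, and without IKK-AA replicate 1 it was 0.37, so the sign rested on which of the 2 was kept.

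IKK-AA alone gave a median difference of 0.30 from WT, against 0.00 over all genes, with 34 of 36 members positive, against 49.2% of all genes. No member passed by limma, and 0.00807% of all genes did. An unadjusted p under 0.05 was found for 2 members, Nop58 at 0.77 (SE 0.199, adjusted p 0.306) and Ppan at 0.39 (SE 0.164, adjusted p 0.414), against 5.16% of all genes in that direction. Rrp12, a late factor of small-subunit maturation, had the third smallest p, and read 5.63 and 5.68 in double mutant arrays, 5.76 and 5.92 in bCATca, 6.21 and 5.32 in IKK-AA and 5.38 and 5.02 in WT. Its IKK-AA arrays lay on opposite sides of WT replicate 1, and its difference was 0.57 (SE 0.27, adjusted p 0.45). Both IKK-AA arrays lay above both WT arrays for 7 of 36 members, against 21.2% of all genes. IKK-AA replicate 1 by itself lay above both WT arrays for 34 members, against 38.3% of all genes. Replicate 2 did so for 7 members, against 34.4% of all genes. The median difference was accordingly 0.59 without replicate 2 and 0.01 without replicate 1.

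Averaged over both IKKα backgrounds, 4 arrays with β-catc.a. were set against 4 without it, and 2 members rose, where 2.99% of all genes did. Ppan rose by 0.56 (SE 0.116, adjusted p 0.0372) and Nop56 by 0.58 (SE 0.128, adjusted p 0.0442). The difference was positive for all 36 members, against 54.2% of all genes, with a median of 0.42, and 26 members had an unadjusted p under 0.05, against 13.9% of all genes. Ppan was the only member with all 4 arrays with β-catc.a. above all 4 without it, which was so for 4.66% of all genes. The count of 2 was 0 without either double mutant array, without bCATca replicate 2, without IKK-AA replicate 2 and without either WT array, and 22 without IKK-AA replicate 1. The average IkkαAA/AA difference had a median of 0.00 over the members, 18 of which were positive, against 48.5% of all genes. No member passed by limma, where 0.0403% of all genes did, and none had an unadjusted p under 0.05, against 5.41% of all genes higher and 6.75% lower. Nop10 had the smallest p, at -0.29 (SE 0.132, adjusted p 0.433), followed by Nop58 at 0.26 (SE 0.141, adjusted p 0.516) and Ftsj3, a nucleolar rRNA-processing protein, at 0.35 (SE 0.241, adjusted p 0.638). Ftsj3 read 5.98 and 5.98 in double mutant arrays, 5.52 and 6.46 in bCATca, 6.36 and 5.57 in IKK-AA and 5.46 and 5.04 in WT, so that its bCATca arrays lay 0.94 apart.

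Most members shared the group at the top and the group at the bottom. The highest group mean was that of bCATca for 35 of 36 members, and the lowest that of WT for 34 of 36. Between them the double mutant mean was above the IKK-AA mean for 29 members and below it for 7. Single arrays followed this only in part. The highest of the 8 arrays was bCATca replicate 2 for 28 members, IKK-AA replicate 1 for 5, bCATca replicate 1 for 2 and double mutant replicate 2 for 1. The shares of all genes highest on these arrays were 19.6%, 9.85%, 11.6% and 7.04%. The lowest array was WT replicate 2 for 30 members, IKK-AA replicate 2 for 4 and WT replicate 1 for 2. The shares of all genes lowest there were 17.5%, 9.83% and 12.3%.

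Replicates of a group differed over the whole set of members at once. In IKK-AA, replicate 1 was above replicate 2 for all 36 members, by a median of 0.60 and by between 0.12 (Imp3) and 0.89 (Rrp12), while replicate 1 was the higher for 48.3% of all genes. In bCATca, replicate 2 was above replicate 1 for 34 of 36 members, against 52.1% of all genes. In WT, replicate 1 was above replicate 2 for 32 of 36 members, by a median of 0.32, against 52.9% of all genes. Double mutant replicates were the closest: replicate 2 was the higher for 22 of 36 members, and the median of replicate 1 minus replicate 2 was -0.03. The median gap of 0.60 within IKK-AA was larger than the median member difference in every comparison of 2 groups except bCATca against WT.

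The members' levels moved with those of other genes on the same arrays. The median member level, relative to the WT mean, was 0.43 and 0.46 in double mutant arrays, 0.57 and 0.90 in bCATca, 0.59 and 0.01 in IKK-AA and 0.16 and -0.16 in WT. The same median over 11 proliferation markers, genes of DNA replication and mitosis, was 0.38 and 0.36 in double mutant arrays, 0.57 and 0.91 in bCATca, 0.57 and 0.06 in IKK-AA and 0.16 and -0.16 in WT. Proliferation markers therefore stood high and low on the same arrays as the members, and within IKK-AA replicate 1 was above replicate 2 for all 11. Over 10 enterocyte markers, genes of differentiated absorptive cells, the median was -0.42 and -0.29 in double mutant arrays, -0.63 and -0.90 in bCATca, -0.37 and -0.07 in IKK-AA and -0.05 and 0.05 in WT. In bCATca against WT, 1 of 11 proliferation markers rose, against 5.74% of all genes, and 3 of 10 enterocyte markers fell, against 3.55%. The summed intensity of the proliferation markers was 6622 and 6666 in double mutant arrays, 7712 and 9964 in bCATca, 7396 and 5459 in IKK-AA and 6214 and 5119 in WT. The summed intensity of 10 T cell markers was 1211 and 877 in double mutant arrays, 7073 and 5336 in bCATca, 2555 and 9377 in IKK-AA and 11311 and 8263 in WT, so that within IKK-AA it was low on the array where the members were high. The part of these other cells and of proliferation in the members' differences was not tested.

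**Figure D4:**
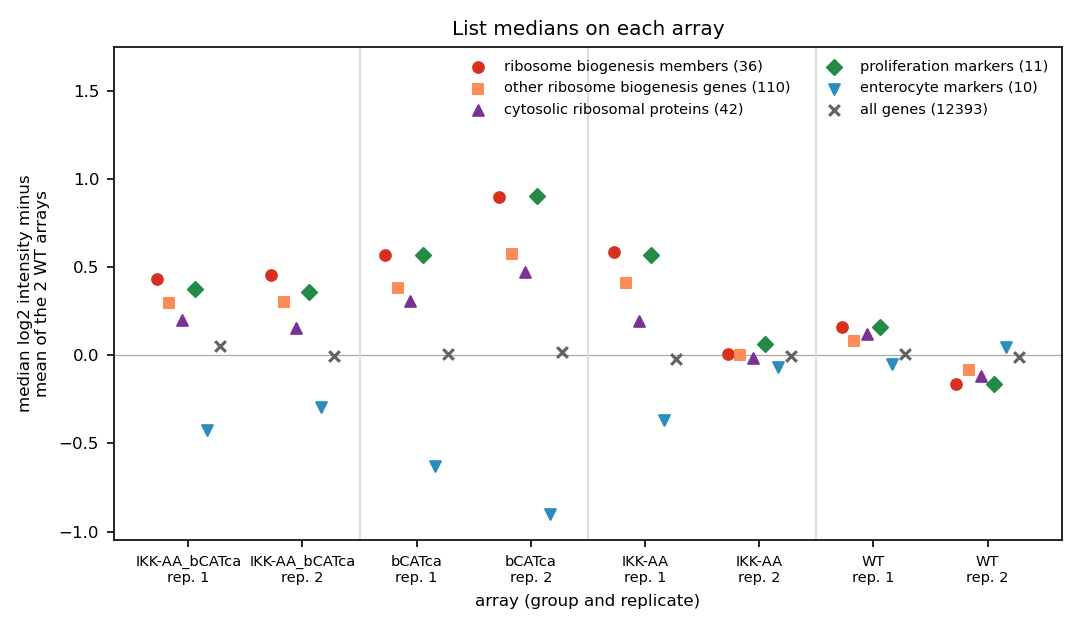
Median over each gene list of log2 intensity minus the mean of the 2 WT arrays, for each of the 8 arrays. Members and proliferation markers differ by at most 0.098 on any array, enterocyte markers lie below them on 7 of 8 arrays, and the median of all 12393 genes stays between -0.02 and 0.05.

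Further genes of the pathway were read from a list of 135 other ribosome biogenesis genes. Of these 110 were measured. In bCATca over WT 15 of the 110 rose, against 5.74% of all genes, and none fell, against 3.55%. A positive difference was found for 105, against 51% of all genes, and the median of the 110 was 0.48. The 15 comprised 8 of 40 large-subunit factors, 3 of 12 exosome and nuclease genes, 2 of 11 modification factors, 1 of 10 polymerase I genes and 1 of 37 small-subunit factors. Naf1, an assembly factor of the box H/ACA particle, rose by 1.26 (SE 0.263, adjusted p 0.0252). Trmt112, a cofactor of several methyltransferases, rose by 1.01 (SE 0.21, adjusted p 0.0248), and Polr1e, a polymerase I subunit, by 1.02 (SE 0.235, adjusted p 0.035). Exosc5, of the RNA exosome that trims rRNA precursors, rose by 0.76 (SE 0.164, adjusted p 0.0286). The lowest difference was that of Exosc8, -0.39. In the other 7 comparisons none of the 110 passed, and in double mutants the median was 0.30 against WT and -0.21 against bCATca.

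Cytosolic ribosomal proteins, the end products that these factors assemble with rRNA, were measured for 42 of 78 listed genes. In bCATca over WT 5 rose, against 5.74% of all genes, and none fell, against 3.55%. All 42 differences were positive, against 51% of all genes, with a median of 0.39. Rps6, a small-subunit protein phosphorylated in response to growth signals, rose by 1.27 (SE 0.167, adjusted p 0.00436), Rpsa by 0.69 (SE 0.159, adjusted p 0.0351) and Rpl14 by 0.99 (SE 0.237, adjusted p 0.039). Myc read 7.14 and 7.46 in double mutant arrays, 7.61 and 7.84 in bCATca, 6.86 and 6.64 in IKK-AA and 6.45 and 6.44 in WT. It rose by 1.28 (SE 0.165, adjusted p 0.00407) in bCATca over WT, and the double mutant differences were 0.86 from WT (adjusted p 0.0506) and -0.42 from bCATca (adjusted p 0.282). Mycl, a paralogue of Myc, rose by 1.79 in bCATca over WT (SE 0.176, adjusted p 0.00136) and fell by 1.03 in double mutants against bCATca (SE 0.176, adjusted p 0.0382). Of the 11 genes of the Myc network measured, no other passed in either comparison.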

How the data were processed

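Affymetrix arrays of intestinal epithelial RNA from 8 samples were used, and the sample titles put 2 arrays in every genotype group. The deposited table gave an intensity on a linear scale for each probe set. RMA and the affy package were used by the authors, per the submitters' processing notes, and their versions and settings are not given in the sources used here. Because the deposited intensities were linear, log2 of each was taken before any test. The annotation gave 1 symbol for 20380 of 22690 probe sets, several for 691 and none for 1555, and 64 were controls. Symbols were updated through the Entrez ID for 20351 and through an accession for 1, and 28 were kept. Each gene was represented by its brightest probe set, by the mean of 8 arrays.

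Group means were estimated jointly from 8 arrays for 12393 genes with limma 3.58.1 in R 4.3.3 (lmFit and eBayes with default settings, 4 residual and 4.28 prior degrees of freedom). The threshold was 0.05 on p-values adjusted by Benjamini-Hochberg across all genes. The fit was tried on simulated data with independent noise for each gene and array, which lack the shared shifts between replicates seen here. The members, the gene lists and the tests were chosen with earlier results of these data known, so no p-value was computed over the members as a set. Values on every array are given for members that passed in any of 8 comparisons and, where none passed, for the 3 with the smallest p. Of each other list at most 3 genes with the smallest p are named, besides Myc; the other ribosome biogenesis genes were kept as 5 such lists by role. Exosc8, named as an extreme, was picked after its value was seen. Promoters of passing members with CACGTG were to be printed; none had it, so the windows shown were chosen after the search was seen. Proteins were not used here, and the gene encoding IKKα is not reported here. Alternatives were cyclic loess, the mean of probe sets, a filter on dim probe sets, eBayes with trend and robust settings, a replicate block, fits of only the groups compared and fits without single arrays. Software for tables and figures was matplotlib 3.10.9, numpy 2.4.6, pandas 2.3.3 and Python 3.11.15.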

Additional observations from a re-analysis of the deposited data

How the results depend on the processing

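With 2 arrays in a group, single arrays decided most counts. For bCATca against WT, 9 members passed, 0 to 21 when 1 array at a time was left out, and 21 with both IKK-AA arrays left out, an alternative chosen after seeing the data. For the average β-catc.a. difference, 2 members passed, 1 with the mean of probe sets and 0 to 22 with 1 array left out. For double mutants against WT the count of 0 became 1 with only those groups fitted and with both IKK-AA arrays left out, and was 0 to 1 with 1 array left out. For IKK-AA against WT the count was 0 to 2 and for the interaction 0 to 1 with 1 array left out. Median differences over these fits were 0.0098 to 0.59 for IKK-AA against WT, -0.15 to 0.37 for double mutants against IKK-AA and -0.91 to -0.30 for the interaction. A fit that leaves 1 array in a group assumes that it varies like the others, and without either IKK-AA array the spread comes from the other 3 groups alone, by construction. Wdr12 in double mutants against IKK-AA turned to -0.039 without IKK-AA replicate 2 and was 0.76 without replicate 1. Only cyclic loess, the mean of probe sets and fits without an array of a group compared can change a difference at all. Of the 29 member differences recomputed, those given with an SE for called or smallest-p members, none but that of Wdr12 changed sign. Small differences outside these can: for Bop1 the double mutant mean of 8.08 lay below bCATca replicate 2 at 8.14, and for Nop10 the double mutant mean of 10.38 lay above WT replicate 2 at 10.37. Cyclic loess moved the median of all genes by less than 0.1 in every comparison.

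With replicate number as a block, 3 members passed in bCATca against WT and 0 in the average β-catc.a. difference, and no other call changed. The numbers did not pair the samples: correlations of deviations of same-numbered arrays ran from -0.45 to 0.15, so a call lost under the block is not read as a weaker effect. Signal over background was not given for single probe sets, so the limit it sets for dim members such as Rrp12 and Dimt1 is not known.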

Other observations

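The arrays carry 3 control probe sets for mouse small-subunit rRNA, the product of the pathway described here. The labelling kit primes on poly(A) tails, so these do not measure the amount of rRNA, and no test was run on them. The control for the 3′ part read 11.77 and 12.07 in double mutant arrays, 11.97 and 12.15 in bCATca, 12.39 and 12.35 in IKK-AA and 11.31 and 11.69 in WT. The control for the 5′ part read 10.65 and 10.96 in double mutant arrays, 10.58 and 10.69 in bCATca, 11.41 and 11.43 in IKK-AA and 9.66 and 10.74 in WT. The control for the middle part read 10.76 and 11.22 in double mutant arrays, 11.08 and 11.34 in bCATca, 11.47 and 11.49 in IKK-AA and 10.07 and 10.68 in WT. The IKK-AA arrays were the 2 highest for all 3 controls, including replicate 2, where the members' messenger RNAs were near WT. The WT arrays were the 2 lowest for the 3′ and middle controls but not for the 5′ control, where WT replicate 2 lay above both bCATca arrays and double mutant replicate 1.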
